A study of Mus musculus with 6 samples.

Results

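Proliferating cells switch on a shared set of genes: those that copy DNA in S phase and those that condense, align and divide the chromosomes in mitosis. The genes described here are 40 such cell cycle and DNA replication genes, chosen by name for their function. The choice was made with earlier results of these data known, so the counts below are descriptive. Of these, 38 could be read, 15 of S phase and 23 of mitosis, out of 22180 genes with a probe set that carries exactly 1 gene symbol. Each was read from the probe set with the highest mean over all 6 arrays. The cyclins Ccne2 and Ccnb1 had no probe set with 1 symbol and were not analysed here.

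The study concerns the role of astrocytes when myelin is first repaired. At an age of 5 to 6 weeks, mice received demyelinating brain lesions by LPC, a lipid that strips myelin locally, and lesions were collected 7 days later. CID, the compound that triggers astrocyte ablation, was injected 48 hours after the lesion, in the same way in wild type mice and in transgenic mice. The transgenic mice carry a construct through which GFAP-positive astrocytes that are not dividing can be driven into apoptosis. The promoter of the construct and the strain of the mice are not named in these sources. Total RNA of each macrodissected lesion went onto 1 Affymetrix array, with 3 wild type and 3 transgenic lesions. The labels do not say whether each lesion came from its own animal, so the p-values reflect the spread among these lesions, which may be technical in part.

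Levels are log2 intensities after RMA, the authors' array normalization, and differences are transgenic minus wild type. As brain tissue should, the arrays carried high signal of the myelin gene Mobp, with means of 12.06 ± 0.11 (SD, n = 3) for wild type and 11.15 ± 0.60 for transgenic lesions, and of the glutamate transporter Slc17a7, at 10.37 ± 0.10 and 10.45 ± 0.18. Gfap, which marks the targeted cells, read 9.83, 9.18 and 9.09 on wild type arrays 1 to 3 and 8.91, 8.82 and 9.24 on the transgenic arrays, and the groups overlapped. Xist, which is expressed from the inactive X chromosome of females, lay between 9.14 and 9.49 on the wild type arrays and on transgenic replicate 2, but at 4.67 and 4.42 on transgenic replicates 1 and 3, which carried Y-linked transcripts instead. Sex and genotype were therefore partly confounded. Transgenic replicate 2 also had the lowest array median, 5.34 against 5.52 to 5.59 on the others.

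Before S phase the replication origin is licensed by loading of the MCM helicase. In S phase the helicase is fired, and nucleotides are supplied for the new strands. In mitosis cyclin B with CDK1, together with the Polo and Aurora kinases, builds the spindle, while a checkpoint holds chromosome separation until every kinetochore is attached. In a demyelinated lesion the dividing cells are known to include oligodendrocyte precursors, microglia, infiltrating macrophages and reactive astrocytes, and the neighbouring subventricular zone holds dividing progenitors as well. In whole-lesion RNA, fewer cells of a type and less RNA per cell cannot be told apart.

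Most of these genes had slightly lower means in the transgenic lesions. Of the 38, 33 had a lower and 5 a higher mean, with a median difference of -0.25. Of all genes, 51.3% had a lower mean and the median difference was -0.0068. In 18 of the 38 the groups did not overlap and all transgenic arrays were the lower ones, 8 in S phase and 10 in mitosis, whereas this was so for 7% of all genes. In 0 of the 38 were all transgenic arrays the higher ones, against 8.38% of all genes.

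No single gene passed the test. In limma, 0 of 41345 probe sets (0%) passed an adjusted p of 0.05, and the lowest adjusted p among the 38 was 0.429. At an unadjusted p under 0.05, 8 of the 38 were lower and 0 higher, where 3.06% of all genes were lower and 3.93% higher. The 8 were Mcm4 and Ezh2 of S phase and Anln, Cenpe, Mki67, Ccna2, Bub1 and Tpx2 of mitosis. Without transgenic replicate 2 the 8 became 3, all lower, where 4% of all genes were lower and 7.48% passed in either direction. Without transgenic replicate 1 they became 15, of which 14 were lower, where 4.65% of all genes were lower. Leaving out any 1 wild type array also left 3, against 1.74% to 1.96% of all genes lower, and leaving out transgenic replicate 3 left 5, against 2.62%. The count of 18 without overlap was 19 of 38 without transgenic replicate 2, where 13.8% of all genes lay wholly below. After each array was centred on its median it was 12, where 4.22% did, with 3 in S phase and 9 in mitosis. Without dim probe sets it was 11 of 25, where 7.37% did. These 11 were 8 of 13 S phase genes and 3 of 12 mitosis genes.

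**Figure D1:**
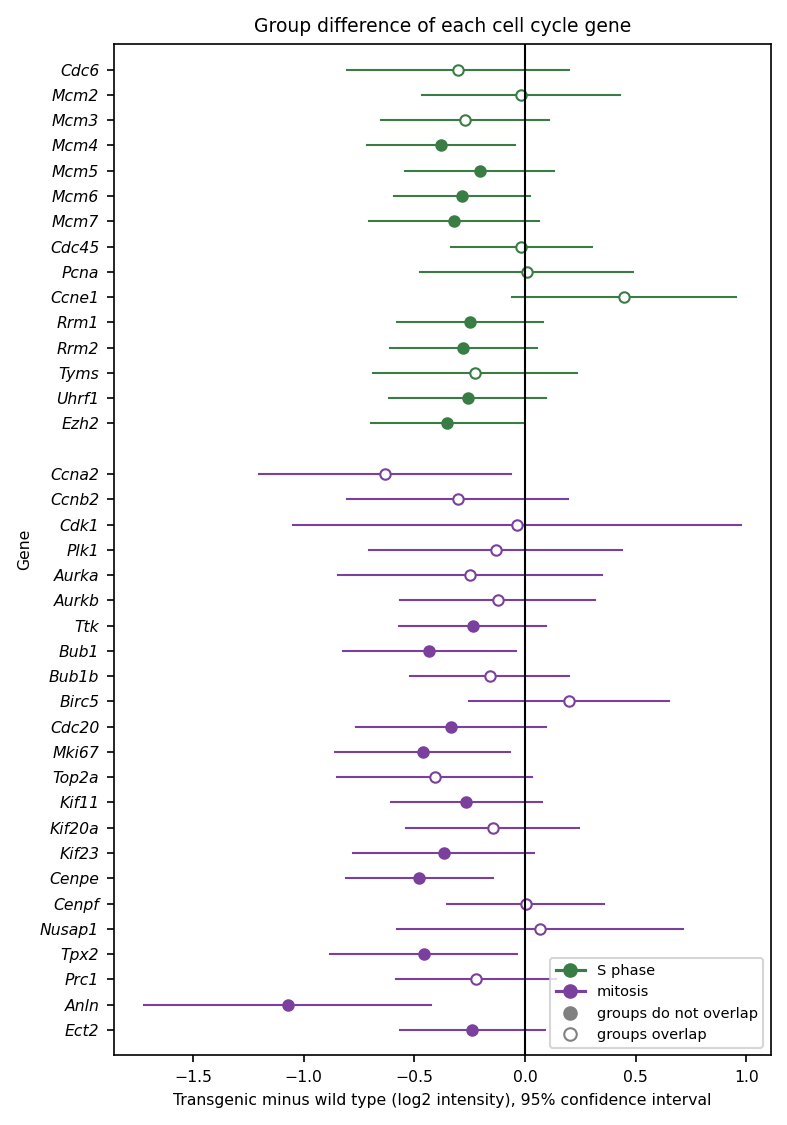
Difference of each of the 38 genes, transgenic minus wild type in log2 intensity, with the 95% confidence interval from limma over 3 arrays per group; filled points mark genes whose groups did not overlap. Points lie left of zero for 33 genes, and the interval of Anln, from -1.72 to -0.42, lies farthest left.

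The S phase genes had a median difference of -0.26, with 13 of 15 lower. The licensing group comprises Cdc6, which loads the helicase, the helicase subunits Mcm2 to Mcm7, Cdc45, which activates it, and Pcna, the clamp that holds the polymerase. Of its 9 genes, 8 had lower means and 4 of them did not overlap between groups, where 7% of all genes lay wholly below. Mcm4 (probe set 17328432) stood at 6.06, 6.07 and 6.23 in wild type replicates 1 to 3 and at 5.60, 5.79 and 5.84 in the transgenic replicates. All transgenic values were under all wild type values, a 1.30-fold lower mean (difference -0.38, SE 0.14, adjusted p 0.522). Mcm6 (17226550) was tightly grouped in wild type, at 6.07, 6.09 and 6.05, and lower on every transgenic array, at 5.87, 5.71 and 5.78 (difference -0.28, SE 0.13, adjusted p 0.592). Mcm7 (17454226) read 6.46, 6.58 and 6.71 against 6.39, 6.39 and 6.02, again without overlap (difference -0.32, SE 0.16, adjusted p 0.627). In Mcm5 the groups did not overlap either, with a difference of -0.21.

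The helicase subunits did not all follow this. Mcm2 (17468798) stood at 6.00, 6.12 and 5.74 in wild type and at 6.25, 5.81 and 5.75 in transgenic lesions. Its highest value was on transgenic replicate 1, and the difference was -0.018 (SE 0.19), a sign that turned under some scalings. Mcm3 differed by -0.27 with overlapping groups. Pcna (17391971) read 9.05, 9.03 and 8.997 in wild type and 9.36, 9.12 and 8.62 in transgenic lesions. Transgenic replicates 1 and 2 were above and replicate 3 below the wild type, for a difference of 0.0080 (SE 0.20). Cdc6 differed by -0.30 and was lowest on transgenic replicate 2, at 5.01, while Cdc45 differed by -0.016, and its sign, like that of Mcm2, turned after quantile normalization (0.031) and median centring (0.038).

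Of the enzymes that supply nucleotides, all 3 had lower means. Rrm2, the S phase subunit of ribonucleotide reductase, was read from probe set 17274540 at 5.62, 5.81 and 5.82 in wild type and 5.57, 5.46 and 5.37 in transgenic lesions. The groups did not overlap (difference -0.28, SE 0.14, adjusted p 0.625). A dimmer second probe set of Rrm2 differed by -0.44, and there the groups overlapped. The partner subunit Rrm1 differed by -0.25 without overlap, and Tyms, which makes thymidylate, by -0.23 with overlap.

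Both genes that carry chromatin marks through replication were lower on every transgenic array. Ezh2 (17466507), the methyltransferase of Polycomb, stood at 6.83, 6.99 and 7.09 in wild type and 6.72, 6.63 and 6.50 in transgenic lesions, a 1.28-fold lower mean (difference -0.35, SE 0.15, adjusted p 0.554). Uhrf1, which recruits the maintenance DNA methyltransferase, differed by -0.26. Ccne1 (17489886), the cyclin that drives entry into S phase, went the other way. It read 6.59, 6.33 and 6.55 in wild type and 6.59, 7.35 and 6.87 in transgenic lesions. Only transgenic replicates 2 and 3 exceeded all wild type arrays, and the difference was 0.45 (SE 0.22, adjusted p 0.606).

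The mitosis genes had a median difference of -0.25, with 20 of 23 lower, and of -0.24 with 19 of 22 lower when Anln was set aside. They varied more among the transgenic lesions than the S phase genes did. Transgenic replicate 2 was the lowest array for 15 of the 23, transgenic replicate 3 for 6 and transgenic replicate 1 for 0. Over all probe sets, these arrays were lowest for 27.7%, 11.7% and 22.3%. In S phase the same arrays were lowest for 4, 5 and 3 of 15 genes. The mean of the mitosis genes was 5.54, 5.47 and 5.45 in wild type replicates 1 to 3 and 5.43, 5.06 and 5.12 in the transgenic replicates. Transgenic replicate 1 thus lay just under the wild type, and without it the median difference was -0.43. In the female arrays alone, which hold a single transgenic lesion, the median difference of mitosis was -0.52 and that of S phase -0.25.

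**Figure D2:**
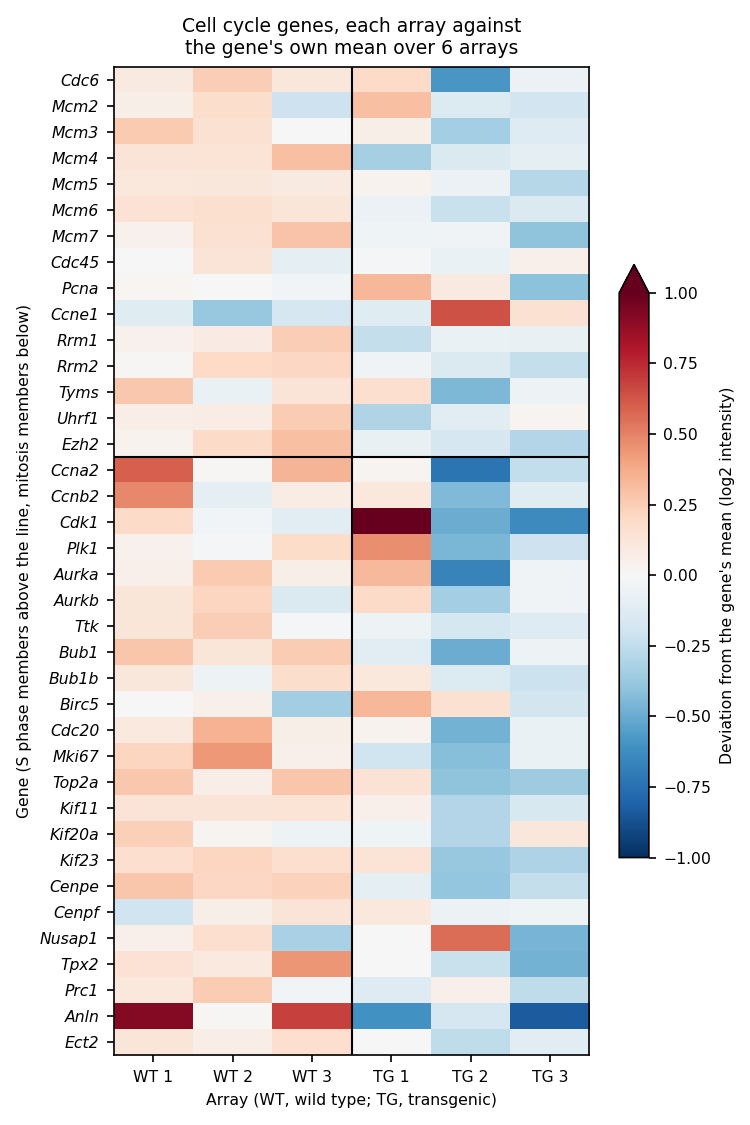
Deviation of each gene on each array from its own mean over the 6 arrays, in log2 intensity, with S phase genes above the horizontal line and mitosis genes below. Wild type columns are mostly red and those of transgenic replicates 2 and 3 mostly blue. On transgenic replicate 1 colours are mixed, with a median deviation of 0.017 over the 38 genes, and Cdk1 lies above the colour range.

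Mki67 and Top2a are the genes most often used to mark dividing cells. Mki67 (17497334), a surfactant of mitotic chromosomes, stood at 5.91, 6.13 and 5.75 in wild type and 5.50, 5.28 and 5.63 in transgenic lesions. Every transgenic array was lower, with a 1.38-fold lower mean (difference -0.46, SE 0.17, adjusted p 0.514). Top2a (17268909), which untangles sister DNA, read 5.85, 5.65 and 5.85 against 5.73, 5.17 and 5.23. Its transgenic replicate 1 was above wild type replicate 2, so the groups overlapped (difference -0.41, SE 0.19, adjusted p 0.592).

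The cyclin and CDK1 group differed mainly through transgenic replicates 2 and 3. Ccna2 (17404821), the cyclin of S and G2 phase, stood at 6.16, 5.57 and 5.89 in wild type and 5.58, 4.83 and 5.31 in transgenic lesions. Transgenic replicate 1 matched wild type replicate 2, and the mean was 1.55-fold lower (difference -0.63, SE 0.24, adjusted p 0.531). Cdk1 (17241692), the kinase that starts mitosis, read 5.70, 5.47 and 5.40 in wild type but 6.58, 5.01 and 4.87 in transgenic lesions. Transgenic replicate 1 was the highest and the other transgenic replicates the lowest of all arrays. The difference of -0.036 (SE 0.43) therefore had a confidence interval from -1.05 to 0.98. Ccnb2, the partner of CDK1, differed by -0.30 with overlap.

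Among the kinases of mitosis, all 6 had lower means and Bub1 and Ttk did not overlap, where 7% of all genes lay wholly below. Bub1 (17391376), a kinase of the spindle checkpoint, stood at 4.43, 4.27 and 4.41 in wild type and 4.05, 3.66 and 4.11 in transgenic lesions. This is a dim probe set, yet all transgenic values were lower (difference -0.43, SE 0.17, adjusted p 0.534). Ttk, which acts upstream in the checkpoint, differed by -0.24 and Bub1b by -0.16. Aurka, which matures the spindle poles, differed by -0.25, Plk1 by -0.13 and Aurkb, the kinase of the chromosomal passenger complex, by -0.12. The last 3 overlapped, and without transgenic replicate 2 their differences turned to 0.024 for Aurka, 0.061 for Plk1 and 0.015 for Aurkb. Plk1 and Aurka were highest on transgenic replicate 1, as Cdk1 was. Birc5, a passenger partner of Aurkb, differed by 0.20, and Cdc20, which activates the anaphase-promoting complex, by -0.33 without overlap.

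Motors and kinetochore proteins were lower in 6 of 8 cases, 4 of them without overlap, where 7% of all genes lay wholly below. Of the 8 probe sets, 6 were dimmer than the median probe set, and these include the 4 without overlap. Cenpe (17402797), the motor that brings chromosomes to the spindle equator, was nearly constant in wild type at 5.24, 5.17 and 5.19. In transgenic lesions it stood at 4.87, 4.58 and 4.72, a 1.39-fold lower mean (difference -0.48, SE 0.14, adjusted p 0.470). The gap between the groups was wider than the spread within either. Tpx2 (17377793), which activates Aurka on the spindle, read 5.41, 5.37 and 5.71 against 5.27, 5.05 and 4.80 (difference -0.46, SE 0.18, adjusted p 0.538). Kif23, a motor of the central spindle, differed by -0.37 and Kif11, which pushes the spindle poles apart, by -0.26, both without overlap. Prc1, which bundles the central spindle, differed by -0.22, Kif20a by -0.15, Cenpf by 0.0024 and Nusap1 by 0.066, and these 4 overlapped.

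Anln showed the largest difference of the 38. It encodes anillin, a scaffold of the cleavage furrow that maturing oligodendrocytes also express, so it does not mark division alone in brain tissue. Anln (17524969) stood at 8.23, 7.32 and 7.995 in wild type and at 6.71, 7.14 and 6.48 in transgenic lesions, a 2.10-fold lower mean (difference -1.07, SE 0.28, adjusted p 0.429). The mature oligodendrocyte list was 9.96, 9.53 and 9.65 in wild type and 8.68, 9.02 and 8.81 in transgenic lesions, with all 13 genes lower and a median difference of -0.84. Both were highest on wild type replicate 1 and, within the transgenic group, on replicate 2. Ect2, which with Kif23 positions the furrow, differed by -0.24 without overlap.

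**Figure D3:**
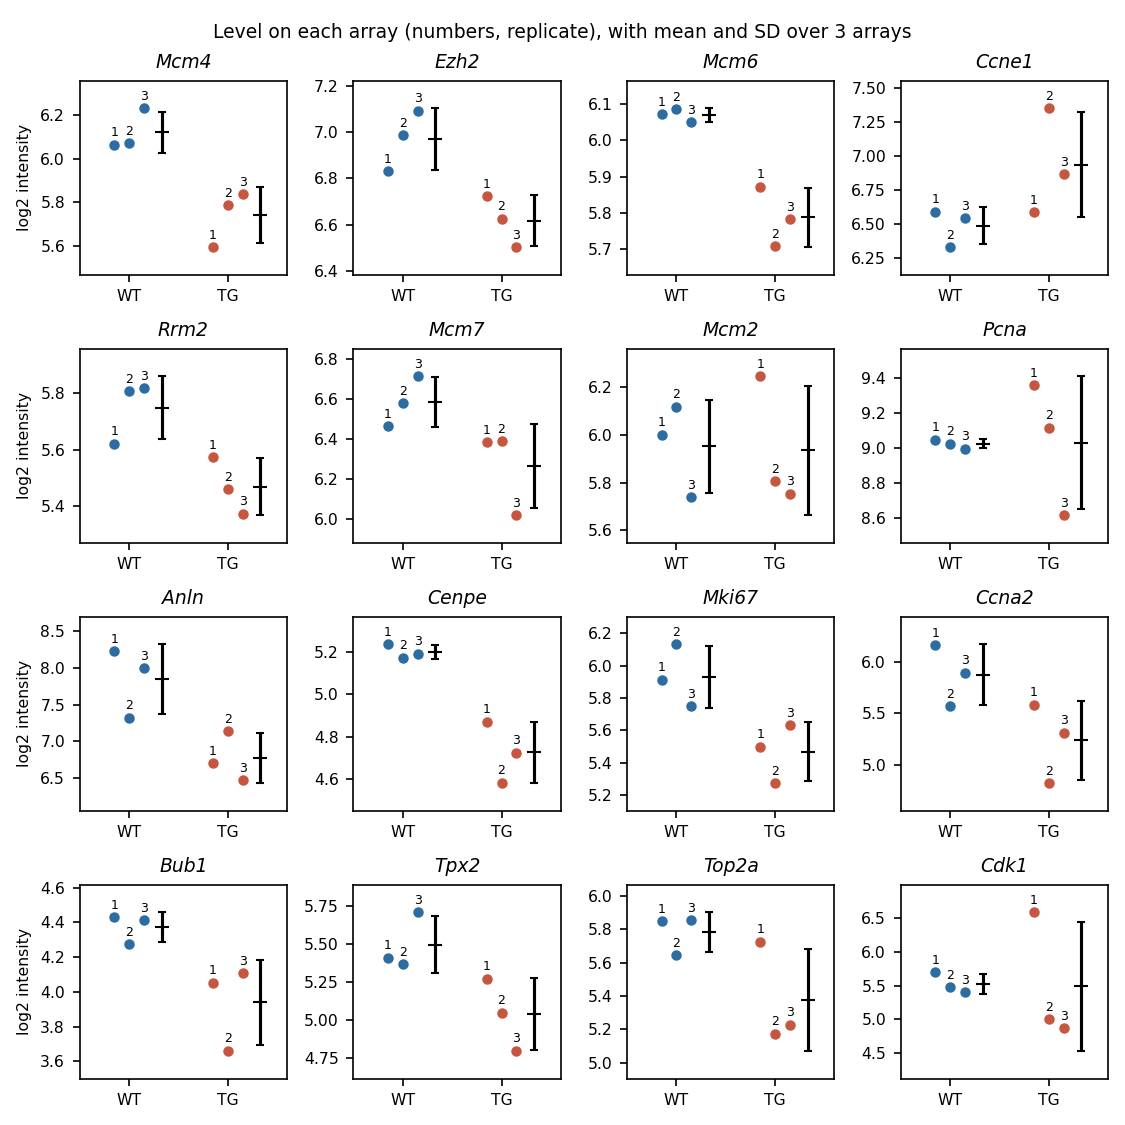
Level of 16 genes on each array in log2 intensity, 6 S phase genes with the smallest p-values first, then Mcm2 and Pcna, then the mitosis genes; points are arrays numbered by replicate, bars are the mean and SD over 3 arrays, and each panel has its own axis. Cenpe and Mcm6 show a gap between the groups, whereas Cdk1 and Pcna spread widely in the transgenic group.

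Genes of S phase and of mitosis are known to be controlled through different promoter elements, E2F sites in the former and, in the latter, CCAAT boxes spaced from a cell cycle homology region (CHR). The letters of these elements were searched on both strands of the RefSeq promoters (GRCm38.p6), from 250 bases before to 50 after each start. The searches were CCAAT for the CCAAT box, TTTGAA or TTTAAA for the CHR, and TTTCCCGC, TTTGGCGC, TTTCGCGC or TTTGCCGC for E2F. Of the 40 genes, 34 had a promoter in the table, with 16 promoters for 14 S phase genes and 22 for 20 mitosis genes. Mcm4, Ccne2, Ccna2, Aurkb, Kif20a and Tpx2 were not among them. CHR letters were in 20 of 22 mitosis promoters (90.9%), in 6 of 16 S phase promoters (37.5%) and in 27.6% of all 32851 promoters. E2F letters were in 7 of 16 S phase promoters (43.8%), in 1 of 22 mitosis promoters (4.55%), that of Cdk1, and in 2.26% of all promoters. CCAAT letters were in 81.2%, 86.4% and 37.4% of S phase, mitosis and all promoters, and CCAAT and CHR letters together in 31.2%, 81.8% and 10.7%. A match is only a run of letters and not a measured binding site.

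**Figure D4:**
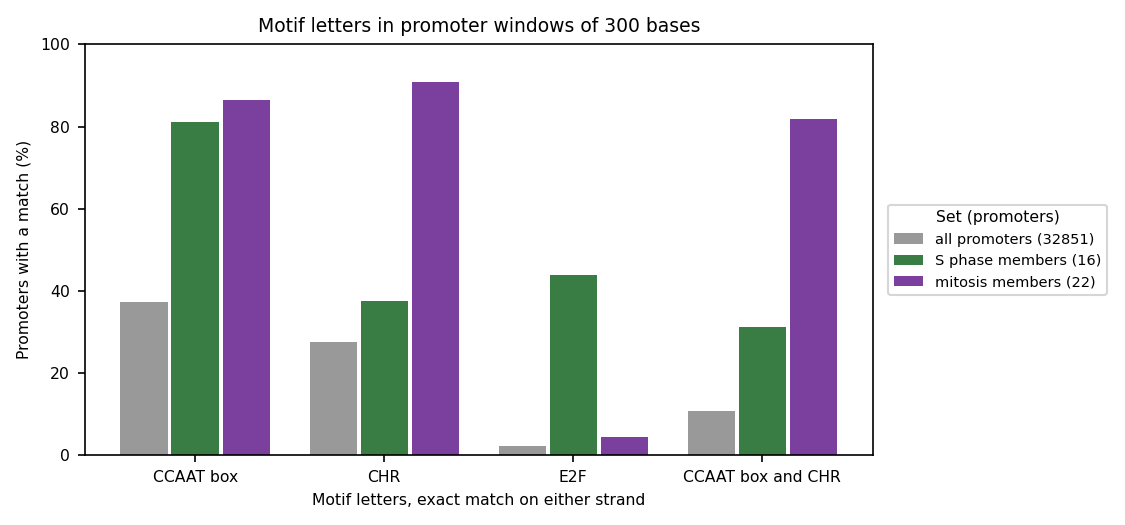
Percent of promoter windows of 300 bases with an exact match, on either strand, for all 32851 promoters, 16 S phase promoters and 22 mitosis promoters. CHR letters were in 90.9% of mitosis promoters and E2F letters in 43.8% of S phase promoters.

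The promoters of the S phase and mitosis genes with the smallest p-values and a match are shown, so that the arrangement can be read beside the values above. Capitals mark the letters searched, and the transcript starts at base 251 of each.
Ezh2, chr6:47594981-47595280, minus strand: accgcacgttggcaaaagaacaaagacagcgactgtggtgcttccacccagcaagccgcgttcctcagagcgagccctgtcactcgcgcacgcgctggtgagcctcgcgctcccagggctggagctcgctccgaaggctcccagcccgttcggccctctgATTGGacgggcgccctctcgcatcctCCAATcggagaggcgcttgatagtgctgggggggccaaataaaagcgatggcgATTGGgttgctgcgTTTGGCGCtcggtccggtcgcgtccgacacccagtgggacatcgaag
Mcm6, chr1:128359656-128359955, minus strand: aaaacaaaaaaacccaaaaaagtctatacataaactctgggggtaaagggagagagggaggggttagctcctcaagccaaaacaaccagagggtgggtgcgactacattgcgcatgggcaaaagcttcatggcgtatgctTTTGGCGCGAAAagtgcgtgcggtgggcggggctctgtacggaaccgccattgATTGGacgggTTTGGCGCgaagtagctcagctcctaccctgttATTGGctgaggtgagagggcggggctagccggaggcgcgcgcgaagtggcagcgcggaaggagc
Anln, chr9:22389157-22389456, minus strand: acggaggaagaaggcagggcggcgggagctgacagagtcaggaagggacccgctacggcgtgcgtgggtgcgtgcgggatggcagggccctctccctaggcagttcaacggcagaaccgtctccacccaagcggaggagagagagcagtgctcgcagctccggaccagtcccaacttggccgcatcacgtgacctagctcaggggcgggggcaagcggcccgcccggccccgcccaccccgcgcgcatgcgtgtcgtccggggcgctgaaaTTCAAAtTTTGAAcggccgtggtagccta
Cenpe, chr3:135212313-135212612, plus strand: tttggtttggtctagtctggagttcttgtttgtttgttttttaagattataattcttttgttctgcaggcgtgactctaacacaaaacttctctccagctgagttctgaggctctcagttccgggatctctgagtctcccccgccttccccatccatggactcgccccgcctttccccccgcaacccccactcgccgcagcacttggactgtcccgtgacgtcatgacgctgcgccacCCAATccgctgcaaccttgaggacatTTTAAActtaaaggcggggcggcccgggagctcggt
In the Mcm6 promoter 3 E2F runs, of which the upstream pair overlaps, lie at bases 141, 145 and 204. One CCAAT run, at base 194, lies between the overlapping pair and the E2F run farthest downstream, and the other, at base 237, lies after it. Ezh2 holds 1 E2F run at base 254 and 3 CCAAT runs. Cenpe has a CCAAT run at base 239 and a CHR run at base 265. Anln has 2 CHR runs, at bases 272 and 279, and no CCAAT run.

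Further genes of the cycle, from lists that hold none of the 40, differed less. Of 36 other replication genes 27 were lower in mean, at a median difference of -0.062. Of these 36, 3 (8.33%) were lower without overlap, close to the 7% of all genes. Cdca7, a factor of replicating chromatin, was 1.76-fold lower (difference -0.82, SE 0.16, adjusted p 0.346), whereas Orc6, of the origin recognition complex, differed by 0.41 and Rpa3, of the single-strand binding protein, by 0.78. At an unadjusted p under 0.05 in limma, 1 of the 36 was lower and 1 higher, where 3.06% of all genes were lower and 3.93% higher. Of 42 other mitosis genes 30 were lower in mean, at a median difference of -0.17. Among these, 6 of 42 (14.3%) did not overlap on the lower side, against 7% of all genes. At an unadjusted p under 0.05, 3 of 42 were lower, against 3.06% of all genes. They were Smc4, a condensin subunit (difference -0.66), Hmgb2, a chromatin protein (-0.68), and Nuf2, of the outer kinetochore (-0.45). Of these genes 0 passed the adjusted threshold.

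Lists of cells that can divide in a lesion were read on the same arrays. Oligodendrocyte precursor genes were lower in 11 of 12, with a median difference of -0.36 and a list mean of 7.08 to 7.29 on wild type and 6.71 to 6.96 on transgenic arrays. Neuroblast and subventricular zone genes were lower in 7 of 7, with list means of 6.27, 6.68 and 6.91 on wild type arrays 1 to 3 and of 5.92 to 6.17 on transgenic arrays. The means of both lists separated the groups, as did the S phase mean, with 6.23 to 6.26 on wild type and 6.01 to 6.14 on transgenic arrays. Gene by gene, 3 of 12 precursor genes (25%) and 3 of 7 neuroblast genes (42.9%) did not overlap, against 7% of all genes. The 3 precursor genes were Olig1, Olig2 and Sox10. Pdgfra (-0.40), Cspg4 (-0.12) and Lhfpl3 (-0.0034) overlapped, and Neu4 was higher in mean (0.14).

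Phagocyte genes did not separate the groups, and their list mean was 9.15, 8.69 and 7.86 in wild type replicates 1 to 3 and 8.91, 7.65 and 7.63 in the transgenic replicates. Within the transgenic group replicate 1 was the highest in this list and in the mitosis mean, whereas in wild type the phagocyte mean ranged over more than 1 unit of log2 intensity and the mitosis mean from 5.45 to 5.54. Homeostatic microglia genes were lower in 10 of 10, but the list mean was 8.80 on wild type replicate 1 and 7.53 to 7.70 on the other arrays. Astrocyte genes were lower in 7 of 9, with list means of 8.36 to 8.58 on wild type and 7.86 to 8.42 on transgenic arrays. T and B cell genes, 7 in all, lay at list means of 4.39 to 4.88, and each of their probe sets was dimmer than the median probe set. Genes of neurons that differ by brain region also moved with the groups. The mean of 4 striatal neuron genes was 6.03, 7.87 and 8.48 in wild type replicates 1 to 3 and 6.02, 6.31 and 5.95 in the transgenic replicates, so wild type replicates 2 and 3 stood apart and the mean difference was -1.37. The mean of 5 cortical neuron genes was 8.16 to 8.19 on wild type and 8.23 to 8.90 on transgenic arrays, with every transgenic array higher. The part of these cell types, of sex and of brain region in the cell cycle differences was not tested.

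**Figure D5:**
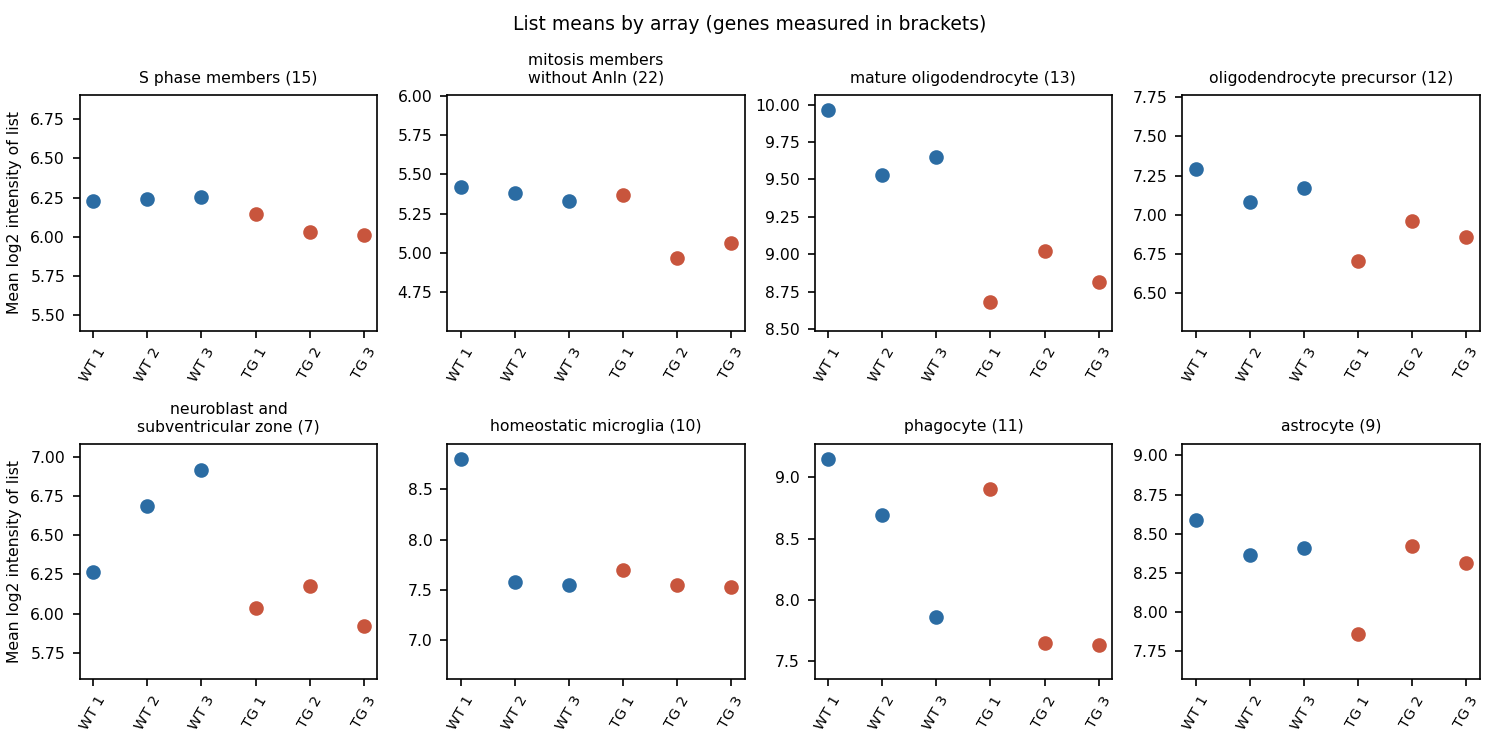
Mean log2 intensity of each gene list on each array, wild type (WT) in blue and transgenic (TG) in red, with the number of genes in brackets; panels differ in axis range. S phase, mature oligodendrocyte, precursor and neuroblast means separate the groups, while on transgenic replicate 1 the mitosis mean without Anln, 5.37, lies within the wild type range of 5.33 to 5.42.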

How the data were processed

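The authors deposited 1 table of array intensities, made with RMA and Affymetrix Expression Console according to the submitters' processing notes, per the labels. The genome build and software versions are not given in the sources used, and neither are detection calls. The values were on a linear scale (array medians 40.4 to 48.3, minimum 3.73) and were turned to log2 with no pseudocount. 0 columns belonged to unknown samples. The number of arrays limits the precision, and the median standard error of a difference was 0.19. Of 41345 probe sets, 23521 had 1 symbol in the platform annotation, 1814 several and 16010 none.

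Groups were compared with limma 3.58.1 in R 4.3.3 (lmFit, eBayes, two-sided, Benjamini-Hochberg over all probe sets) without covariates. Tested on simulated data for this comparison, over 41345 probe sets, that step recovered 35 of 100 probe sets changed by 1 log2 unit. Of those changed by 2 it recovered 96 of 100, and there were 8 false calls. The simulated noise was independent and equal in both groups, whereas the median SD was 0.15 in wild type and 0.26 in transgenic arrays. Differences as small as the median of the 38 genes, -0.25, were not simulated. Values on every array are given for Mki67, Top2a, Cdk1, Pcna, Mcm2, Anln and the 6 genes of each class with the smallest p; of other lists up to 3 genes are named. The members and lists were chosen with earlier results of these data known.

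Alternatives were further normalization, other variance models, array weights, the replicate block, sex, a filter on dim probe sets, averaged probe sets and leaving out each array. The count without overlap was recomputed as an alternative chosen after seeing the data.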

Additional observations from a re-analysis of the deposited data

How the results depend on the processing

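The median difference was below 0 for S phase and mitosis under every alternative run. It moved by more than the spread between replicates after median centring in S phase (-0.21). In mitosis it did so without transgenic replicate 1 (-0.43), with sex as a covariate and in the female arrays alone (-0.52 in both). The last 2 are the same comparison. No wild type array was male, so the sex covariate leaves transgenic replicate 2 against the wild type arrays. Both rest on that single transgenic lesion, which also had the lowest array median. Leaving out each array gave -0.31 to -0.22 for S phase and -0.43 to -0.19 for mitosis. The count at an unadjusted p under 0.05, 8 of 38, where 6.98% of all genes passed in either direction, was 5 after quantile normalization (7.66%), 5 after median centring (5.81%), 5 of 25 without dim probe sets (9.01%), 25 with array weights (23%) and 15 in the female arrays alone (21.4%). It was 3 to 15 when an array was left out (3.3% to 10.5%). The labels do not say whether the replicate numbers pair the samples. Correlations of same-numbered deviations were 0.01, -0.10 and -0.07, which cannot settle this with 3 arrays per group. With the replicate block the count at an unadjusted p under 0.05 was 4 (4.82%). The count without overlap was 12 after median centring, 11 of 25 without dim probe sets, where 7.37% of all genes lay below, and 30 in the female arrays alone, where 33.5% of all genes lay below; it was 18 to 27 when an array was left out, where 10.4% to 15.2% did, with 27 and 15.2% without transgenic replicate 1. The 0 probe sets called became 2611 with array weights, where transgenic replicate 3 had a weight of 7.67 and its group mates of 0.28 and 0.26, 1481 with sex as a covariate, 1843 in the female arrays alone and 0 to 335 when an array was left out, with 335 without transgenic replicate 2. Among the genes with values on every array, Anln, Cenpe, Ezh2, Mcm7, Top2a and Tpx2 passed the adjusted threshold with array weights. At that setting 2611 of all 41345 probe sets passed. The other members were not read at this threshold. Of the 38 differences, 27 kept their sign under every alternative run and 11 turned under at least 1. Among the genes with values on every array, these were Cdk1 (0.061 after quantile normalization, 0.018 after median centring, -0.58 to 0.27 without an array), Mcm2 (0.038 and 0.036 in the same order, -0.17 to 0.073) and Pcna (-0.058 after quantile normalization, -0.36 with array weights, -0.16 to 0.21). Of the other 8, Aurka, Aurkb and Plk1 turned only without transgenic replicate 2, Birc5 and Kif20a only with array weights, and Cdc45, Cenpf and Nusap1 under several alternatives. The cause of these changes was not tested. Without detection calls, a difference in the dimmest probe sets, which include 11 of the 23 mitosis genes below the median probe set, may be compressed.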

Other observations

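Genes that act before S phase and genes that hold cells out of the cycle did not follow the S phase and mitosis genes in every case. Of 11 G1 cyclins, kinases and pocket proteins 8 were lower in mean, at a median difference of -0.16. Rbl1, a pocket protein, differed by -0.40 (SE 0.18), Rb1, the retinoblastoma protein, by -0.31 and Cdk2 by -0.23. A second, dimmer probe set of Rb1 went the other way. In none of the 11 were the groups separate, where 7% of all genes lay wholly below and 8.38% wholly above. With 11 genes this does not set the list apart from all genes.

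Of 9 CDK inhibitors and p53 arrest genes 6 were higher in mean, at a median difference of 0.03. Ccng1, a target of p53, stood at 8.90, 8.69 and 8.52 in wild type replicates 1 to 3 and at 8.95, 9.16 and 9.15 in the transgenic replicates, so every transgenic array was higher (difference 0.38, SE 0.16, adjusted p 0.552 in limma). Cdkn1a, the inhibitor p21 and another p53 target, was also higher on every transgenic array, with a difference of 0.31 (SE 0.15), and Cdkn2b, an inhibitor of CDK4 and CDK6, was lower on every transgenic array, with a difference of -0.26 (SE 0.14). The 8 E2F, MYB and FOXM1 factors, which control the S phase and mitosis genes and are not all activators, had a median difference of 0.14, with 5 higher. E2f2 was higher on every transgenic array, with a difference of 0.29 (SE 0.13), while Mybl2 differed by -0.24 and E2f3 by 0.22. Of the 9 inhibitors and arrest genes, 2 lay wholly above and 1 wholly below, and of the 8 factors 1 lay each way. Over all genes 8.38% lay wholly above and 7% wholly below. In limma 0 of these genes passed an adjusted p of 0.05.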
